A study of Mus musculus with 20 samples.

Results

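The 9 genes described here encode the cytoplasmic actins (Actb, Actg1), beta-tubulins (Tubb5, Tubb4b), alpha-tubulins (Tuba1a, Tuba1b, Tuba1c) and a pair of small actin-binding proteins, cofilin (Cfl1) and profilin (Pfn1). Their introns were taken from both deposited splicing tables, in both states of the cells, and found through the transcript identifier and its GENCODE symbol: 30 introns of the 68794 in the table of spliced and unspliced reads, and 20 of the 6537 in the table of splicing intermediates. The cells are MEL, a murine erythroleukemia line that is transformed and takes a red cell course when given dimethyl sulfoxide (DMSO). The uninduced pool stands for 4 long-read samples of wild type MEL cells with no treatment, and the induced pool for 4 long-read samples of wild type MEL cells given 2% DMSO over 5 days. Each state had 2 biological replicates, and both PacBio instruments read each of them. All of these samples were made from RNA of the chromatin fraction after removal of polyA+ and ribosomal RNA, which leaves mainly nascent RNA, still attached to polymerase. The other 12 samples of the series, from cells with an integrated HBB gene and from run-on sequencing, were not analysed here.

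Actin polymerises into filaments and alpha- and beta-tubulin pair into the heterodimers that build microtubules. Cofilin severs actin filaments and profilin hands actin monomers to growing ends. Maturing red cell precursors shrink, stop dividing and rebuild their cytoskeleton, with actin kept in short filaments under the membrane. Actb and Actg1 proteins are nearly the same, as are the alpha-tubulins among themselves.

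The splice sites of the main introns are shown first. Each 5' splice site is the last 3 exon bases and the first 6 intron bases, and each 3' splice site the last 20 intron bases and the first 3 exon bases, as deposited, with the GT and AG at the intron ends in capitals. The introns shown are those with the lowest coSE in the induced pool in Actg1 and Tubb5, their counterparts in Actb, and a pair of introns that 2 alpha-tubulin genes share.
Actb intron 4, 5' site: tggGTaagt
Actg1 intron 4, 5' site: tggGTaggt
Actb intron 4, 3' site: ttctgtcactcttctcttAGgta
Actg1 intron 4, 3' site: aaatgagctctgttccctAGgca
Actb intron 5, 5' site: aagGTaagc
Actg1 intron 5, 5' site: aagGTgagt
Actb intron 5, 3' site: tcttgtcttgctttcttcAGatc
Actg1 intron 5, 3' site: tcagtgtttttcctccacAGatc
Tubb5 intron 2, 5' site: cagGTgagg
Tubb5 intron 2, 3' site: attgacttgaattcctgcAGgtg
Tubb5 intron 3, 5' site: tcgGTgagt
Tubb5 intron 3, 3' site: tttcccttactgcattccAGgtc
Tuba1b intron 2, 5' site: tcgGTaagc
Tuba1c intron 2, 5' site: tcgGTaagc
Tuba1b intron 2, 3' site: gatgtcttctccctttgcAGatg
Tuba1c intron 2, 3' site: gatgtcttctccctttgcAGatg
Counted from 1 at the 5' end of the 9-base site, intron 4 of Actg1 differed from that of Actb by A7G alone (Actb has the A), and the 3' sites of the same introns differed at 14 of 23 bases. The sites of intron 2 were identical in Tuba1b and Tuba1c, and both introns were 132 nt long with a GC content of 56.1%.

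The joined exons were compared in the same way. The coding sequences of Tuba1b and Tuba1c, from the GENCODE transcripts, were 97.9% identical in a global alignment, and those of Tuba1a and Tuba1b 98.3%, with runs of up to 468 and 281 identical bases. Those of Actb and Actg1 were 88.6% identical and those of Tubb5 and Tubb4b 82.2%, with longest identical runs of 62 and 26 bases. The 15 bases on each side of a junction show the difference, with the downstream exon in capitals.
Tuba1a intron 2, junction: aacccacggtcatcgATGAAGTTCGCACCG
Tuba1b intron 2, junction: aacccacggtcatcgATGAAGTTCGCACCG
Tuba1c intron 2, junction: aacccacggtcatcgATGAAGTTCGCACCG
Actb intron 4, junction: agccttccttcttggGTATGGAATCCTGTG
Actg1 intron 4, junction: agccttccttcctggGCATGGAGTCCTGTG
Tubb5 intron 2, junction: ataatgaagccacagGTGGCAAGTATGTCC
Tubb4b intron 2, junction: acaacgaagccaccgGTGGCAAGTATGTGC
The alpha-tubulin junctions did not differ in these 30 bases, the actin pair differed at 3 and the beta-tubulin pair at 4. How reads were divided between gene copies is not given in the sources used here, so the values of Tuba1a, Tuba1b and Tuba1c are uncertain for each gene.

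Across all genes the uninduced pool held 416379 intron observations, a read being counted at each intron it covers, and the induced pool 279371. The 9 genes contributed 590 and 489 of them. Of 11 erythroid marker genes, 11 took a larger share of the induced than of the uninduced pool, together 214 and 3416 per 100000 observations. Of 15 markers of other cell types, 12 were not listed in the table; the others were Ptprc, a leukocyte gene, with 96 and 0 observations, and the megakaryocyte genes Pf4, with 80 and 10, and Itga2b, with 26 and 202. Their part in the results below was not tested. Each table gives 1 value per intron and pool, and a spread between replicates cannot be computed from it. Each test compares 2 pools of reads and not 2 conditions. Wilson 95% intervals are given for single shares, and intervals and tests cover counting error only.

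Splicing of the cytoskeletal introns was incomplete in the nascent RNA of both pools. Co-transcriptional splicing efficiency (coSE) is the number of reads spliced at an intron over all reads that cover it. With the reads of all their introns added, the 9 genes had a coSE of 0.754 (interval 0.718 to 0.787) in the uninduced pool and of 0.724 (interval 0.683 to 0.762) in the induced pool, against 0.861 in both pools over all genes. Leaving out Actb, the gene with the most reads, gave 0.748 and 0.664. Reads covering several introns are counted several times, so these intervals are too narrow.

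At least 10 reads were present at 24 of the 30 introns in the uninduced pool and at 21 in the induced pool. Their median coSE was 0.750 and 0.733, beside 0.933 and 0.947 over the 9982 and 6333 introns of all genes at that depth. A coSE under 0.8 was found at 13 of the 24 introns (54.2%) and 14 of the 21 (66.7%), and at 22.8% and 21.8% of introns of all genes. The introns of these genes are short, with a median of 293.5 nt against 1226 nt over the whole table. Among introns of at most 500 nt, the median was 0.718 for 17 introns of these genes and 0.833 for 3110 of all genes in the uninduced pool, and 0.684 for 15 and 0.846 for 2187 in the induced pool. No test was made between these sets, since introns of 1 gene share molecules.

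**Figure D1:**
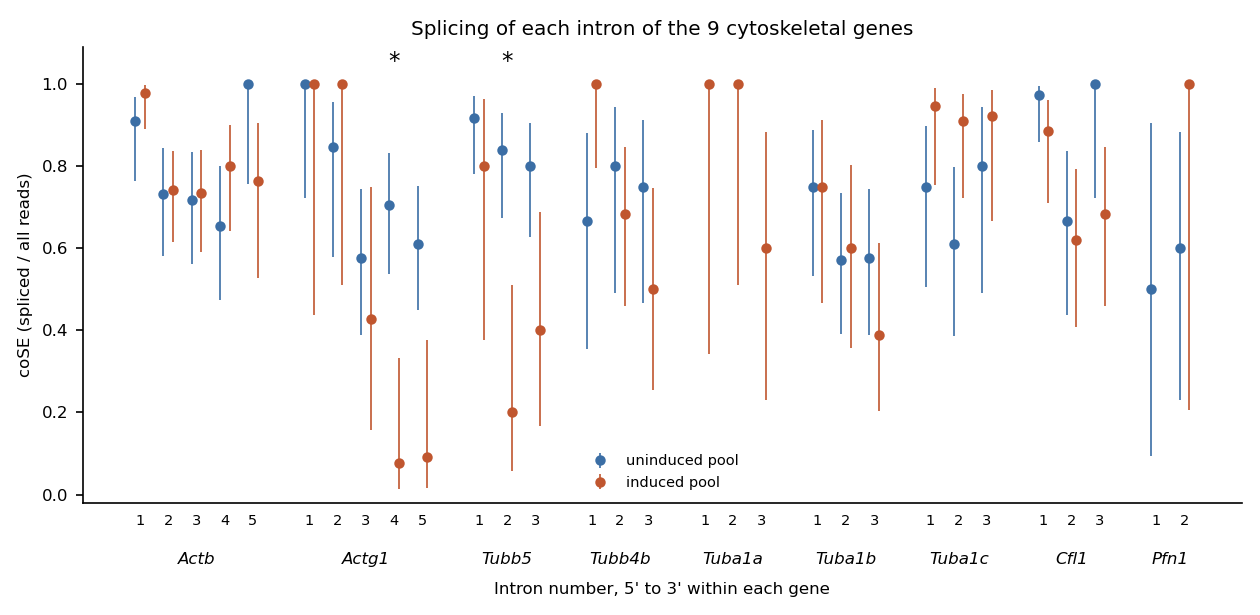
coSE of each of the 30 introns (vertical axis, share of reads spliced) in the uninduced pool (blue) and the induced pool (orange), with Wilson 95% intervals, by gene and intron number; a pool with no read at an intron has no point. The stars mark intron 4 of Actg1 and intron 2 of Tubb5, at 0.0769 and 0.200 in the induced pool.

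In the comparison of the pools, 20 of the 30 introns had at least 10 reads in each, and 2 of them had a lower coSE in the induced pool past the threshold: intron 4 of Actg1 and intron 2 of Tubb5. None had a higher coSE past it. The test was a two-sided Fisher's exact test per intron with Benjamini-Hochberg adjustment over all 4403 introns tested, with a threshold of 0.05, and it called 1.61% of introns in either direction and 1.25% as lower. An unadjusted p under 0.05 was found at 4 of the 20 (20%), and at 351 of all 4403 (7.97%). The 4 were introns 4 and 5 of Actg1 and introns 2 and 3 of Tubb5. Such neighbours share reads and are not independent observations. All 4403 introns had a median coSE of 0.942 (uninduced) and 0.952 (induced), beside 0.750 and 0.709 for the 20. The percentages thus come from introns of unlike splicing and were not compared by a test. The difference, induced minus uninduced, had a median of -0.0676 over the 20 introns and of 0 over all 4403; it was positive at 8 (40%), negative at 11 (55%) and 0 at 1 of the 20. Over all introns it was positive at 42.7% and negative at 34.8%.

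Actb encodes beta-actin, the main actin of most non-muscle cells. Its 5 introns lie on the minus strand of chromosome 5 between 142903942 and 142906651 (GRCm38, as are all positions here). Intron 1, in the 5' UTR, was spliced in 30 of 33 uninduced and 47 of 48 induced reads, a coSE of 0.909 and 0.979. It was the intron with the highest induced coSE of the gene. The others lie between coding exons. Intron 2 had a coSE of 0.732 on 41 uninduced reads and 0.741 on 58 induced reads, and intron 3 had 0.718 on 39 and 0.733 on 45. Intron 4 was at 0.655 on 29 reads and 0.800 on 35. The last intron was spliced in all 12 uninduced reads and in 13 of 17 induced reads. None of the 5 differences passed the threshold. Intron 5 came nearest, with a p of 0.121 by Fisher's exact test (adjusted p 0.908).

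Actg1 encodes gamma-actin, the second cytoplasmic actin. Its 5 introns lie on the minus strand of chromosome 11 between 120346534 and 120348424, and introns 2 to 5 interrupt the coding sequence after the same numbers of bases as in Actb, 123, 363, 802 and 984. In the uninduced pool coSE was 1 at intron 1 (10 reads), 0.846 at intron 2 (13 reads), 0.577 at intron 3 (26 reads), 0.706 at intron 4 (34 reads) and 0.611 at intron 5 (36 reads). In the induced pool the first 2 introns were spliced in 3 of 3 and 4 of 4 reads and intron 3 in 3 of 7. Introns 4 and 5 were spliced in 1 of 13 and 1 of 11 induced reads. The unspliced reads of the induced pool thus lay at introns 3 to 5, toward the 3' end of the gene. The uninduced pool had a like layout, with 0, 2, 11, 10 and 14 unspliced reads at introns 1 to 5. Few induced reads covered introns 1 and 2.

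Intron 4 of Actg1 (chromosome 11, 120346819 to 120346910) fell from 0.706 (interval 0.538 to 0.832) to 0.0769 (interval 0.0137 to 0.333), with an adjusted p of 0.0159 by Fisher's exact test. Intron 5 (120346534 to 120346636) had 0.611 (interval 0.449 to 0.752) and 0.0909 (interval 0.0162 to 0.377), a difference of -0.520 that did not pass (p 0.00439, adjusted p 0.168). These neighbouring introns share reads and are not independent observations. At the counterpart of intron 4 in Actb the difference was 0.145, in the other direction, and at that of intron 5 it was -0.235, in the same direction. Neither passed (adjusted p 1 and 0.908 by Fisher's exact test). The differences between the genes were not tested. The call at intron 4 was lost with the uninduced reads thinned to the depth of the induced pool (adjusted p 0.0724) and with no read minimum (adjusted p 0.145). With thinned reads the difference at intron 4 of Actb was 0.25, and it did not pass (adjusted p 0.763 by Fisher's exact test).

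Of 5 annotated transcripts that span intron 4 of Actg1, 4 have it, and in none does an annotated exon run through it. Intron 3, by contrast, is present in 3 of 7, and 1 annotated transcript of the retained intron class keeps it. How reads of such a transcript were counted is not given in the sources used here.

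**Figure D2:**
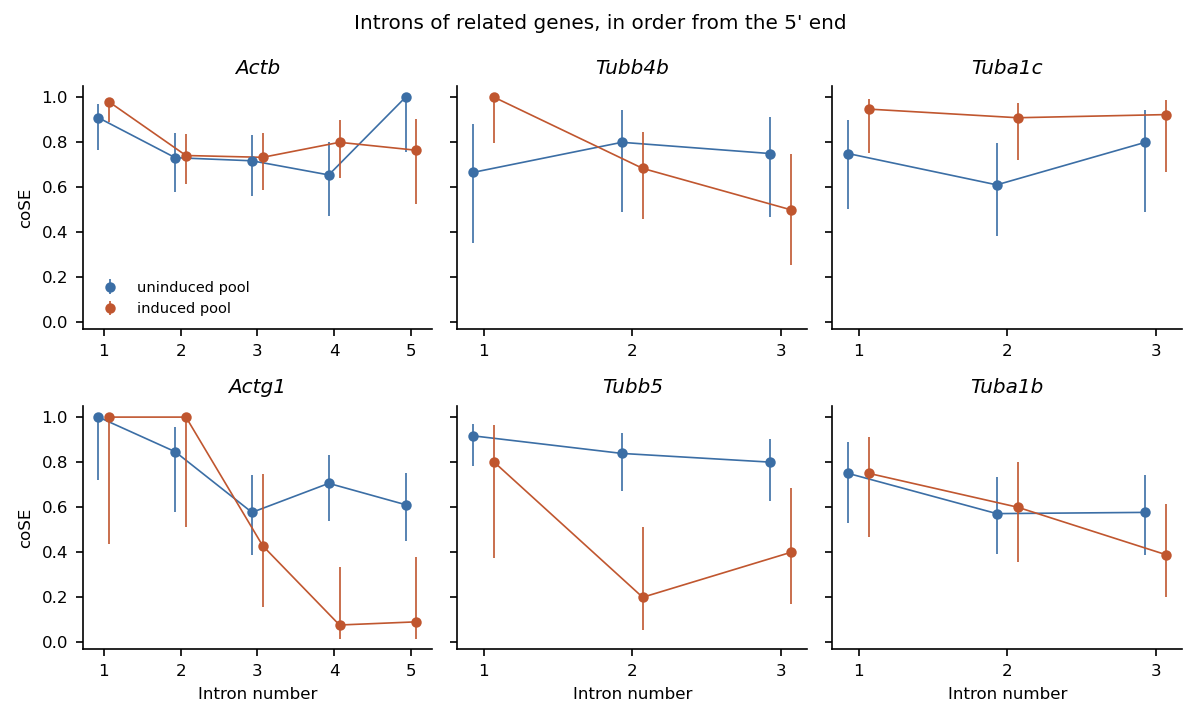
coSE (vertical axis) against intron number for related genes, Actb above Actg1, Tubb4b above Tubb5 and Tuba1c above Tuba1b, with the uninduced pool in blue, the induced pool in orange and Wilson 95% intervals as bars; lines join the introns of 1 gene. Introns of the same number stand at the same coding position in both genes of a column, except intron 1 of the actins, which lies in the 5' UTR. At introns 4 and 5 the induced values were 0.800 and 0.765 in Actb and 0.0769 and 0.0909 in Actg1.

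Tubb5 encodes a widely expressed beta-tubulin. Its 3 introns lie on the minus strand of chromosome 17 between 35836040 and 35837996. In the uninduced pool they were spliced in 33 of 36, 26 of 31 and 24 of 30 reads, a coSE of 0.917, 0.839 and 0.800. The induced pool held few reads, with 4 of 5, 2 of 10 and 4 of 10 spliced. Intron 2 (35836274 to 35836627) fell to 0.200 (interval 0.0567 to 0.510), with an adjusted p of 0.0337 by Fisher's exact test. Intron 3 (35836040 to 35836162) had an interval of 0.168 to 0.687 in the induced pool, a difference that did not pass (Fisher's exact p 0.0411, adjusted p 0.567). Of 4 annotated transcripts that span intron 2, 2 have it and 1 of the retained intron class keeps it. The call at intron 2 was lost with a minimum of 5 reads (adjusted p 0.0804), with no minimum (adjusted p 0.288) and with thinned uninduced reads (adjusted p 0.0989).

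Tubb4b encodes another beta-tubulin, with introns after the same coding bases as Tubb5, 57, 166 and 277, on the minus strand of chromosome 2 between 25223369 and 25224533. Intron 1 was spliced in 6 of 9 uninduced and 15 of 15 induced reads. Intron 2 was spliced in 8 of 10 and 13 of 19 reads, and intron 3 in 9 of 12 and 6 of 12. Neither of the 2 introns with enough reads passed the threshold, with adjusted p of 1 at both. With all its introns added, Tubb4b had a coSE of 0.742 on 31 observations and 0.739 on 46, and Tubb5 had 0.856 on 97, against 10 spliced of 25 in the induced pool.

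The alpha-tubulin genes lie on chromosome 15 and have introns after 3, 226 and 375 coding bases. Tuba1b (minus strand, 98932563 to 98934332) had the lowest splicing of the 6 genes with over 40 uninduced observations, 0.622 (interval 0.508 to 0.724) over 74, and stood at 0.556 over 45 in the induced pool. By intron it had 0.750, 0.571 and 0.577 in the uninduced pool on 20, 28 and 26 reads. In the induced pool 9 of 12, 9 of 15 and 7 of 18 reads were spliced. None of its 3 differences passed the threshold (adjusted p 1 at each).

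The introns of Tuba1c (plus strand, 99030425 to 99037034) were spliced in 12 of 16, 11 of 18 and 8 of 10 uninduced reads and in 18 of 19, 20 of 22 and 12 of 13 induced reads. All 3 values were higher in the induced pool, and none passed the threshold. Intron 2 (99034317 to 99034448) came nearest, with 0.611 and 0.909 (Fisher's exact p 0.0535, adjusted p 0.647). With thinned uninduced reads its difference went from 0.298 to 0.182, and that of intron 1 from 0.197 to 0.233. Intron 2 of Tuba1b has the same splice sites, length and GC content, and was spliced in 16 of 28 and 9 of 15 reads. Tuba1a (minus strand, 98951015 to 98953450) had no line in the uninduced pool and 2, 4 and 5 reads in the induced pool, of which 2, 4 and 3 were spliced. With the 3 genes added, which avoids the question of copies among them, coSE was 0.653 (interval 0.563 to 0.732) over 118 uninduced and 0.764 (interval 0.676 to 0.833) over 110 induced observations.

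Cfl1, which encodes cofilin, lies on the plus strand of chromosome 19, with introns between 5490603 and 5493380. Intron 1, the longest at 1894 nt, was spliced in 35 of 36 uninduced and 23 of 26 induced reads. Intron 2 was spliced in 12 of 18 and 13 of 21. Intron 3 was spliced in 10 of 10 uninduced and 13 of 19 induced reads (Fisher's exact p 0.0676, adjusted p 0.728). All 3 values were lower in the induced pool and none passed; with thinned uninduced reads the difference at intron 2 went from -0.0476 to 0.0476. Pfn1, which encodes profilin (chromosome 11, minus strand, introns between 70652222 and 70654348), had 7 uninduced observations and 1 induced observation, too few for a splicing value.

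Among the 5 genes with at least 10 induced reads at both their first and last intron, the first was the better spliced in 5. These were Actb, Tubb4b, Tuba1b, Tuba1c and Cfl1, and the median difference was 0.214. Over all 197 genes of that depth the median was 0.00173, and the first intron was higher in 50.8%. In the uninduced pool the first was higher in 3 of the 6 genes with that depth, with a median of 0.0444, against a median of 0 and 48.6% of 484 genes. The gene sets of the pools differ, since Tubb4b lacked the reads in the uninduced pool and Actg1 and Tubb5 in the induced pool, and the order was not tested. In Tuba1c the induced order rested on 18 of 19 against 12 of 13 spliced reads. The first intron was also longer than the last in Actb, Tuba1b, Tuba1c and Cfl1, and shorter in Tubb4b. A part of intron length in the order was not tested.

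Added over their introns, Tubb5 and Actg1 stood at the low end of all genes. The comparison was made over the 2082 genes with at least 25 observations in each pool, a depth that 7 of the 9 genes reached, Tubb5 with exactly 25 in the induced pool. The difference in coSE was -0.456 for Tubb5 and -0.373 for Actg1, and 3 and 9 of the 2082 genes had a lower value. The gene median was 0.0182, with 5% of genes under -0.155 and 5% above 0.224. Cfl1 was at -0.148, Tuba1b at -0.0661, Tubb4b at -0.00281, Actb at 0.0352 and Tuba1c at 0.221. The value of Actg1 depended on how its introns were weighted: as a plain mean over its 5 introns the difference was -0.229, and over its 2 introns with at least 10 reads in both pools -0.574. For Tubb5 these were -0.385 and -0.520. Tubb4b moved from -0.00281 to -0.0108 as a plain mean and to -0.160 over its 2 introns with at least 10 reads in both pools, where coSE was 0.773 and 0.613. Both weightings were chosen after seeing the data.

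**Figure D3:**
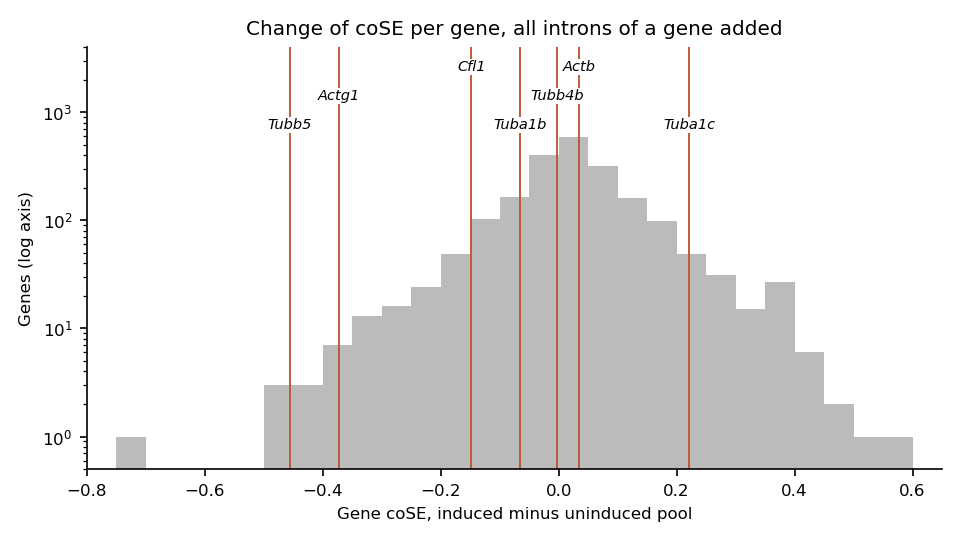
Number of genes (vertical log axis) by difference in coSE between the induced and the uninduced pool (horizontal axis, all introns of a gene added), for 2082 genes, with orange lines at the 7 cytoskeletal genes. Tubb5 at -0.456 and Actg1 at -0.373 lie in the lower tail, and the other 5 lie between -0.148 and 0.221 with all their introns added.

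The genes also took different shares of the reads in the 2 pools. Actb had 154 uninduced and 203 induced observations, 37.0 and 72.7 per 100000 observations of each pool, a ratio of 1.96. Tubb4b had 7.45 and 16.5 per 100000 (ratio 2.21), Tuba1c 10.6 and 19.3 (ratio 1.83) and Cfl1 15.4 and 23.6 (ratio 1.54). These 4 genes had a larger share in the induced pool, as did Tuba1a, with 0 and 11 observations. Actg1 had 28.6 and 13.6 per 100000 (ratio 0.476) and Tubb5 23.3 and 8.95 (ratio 0.384). Tuba1b was at 17.8 and 16.1 (ratio 0.906). The division of reads among the alpha-tubulin copies is uncertain. Added together, the 3 alpha-tubulin genes had 28.3 and 39.4 per 100000 (ratio 1.39). At the deepest intron, where a read counts once, Actb had 41 and 58 reads, Actg1 36 and 13, and Tubb5 36 and 10.

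Pfn1 had 1.68 and 0.358 per 100000, on 7 and 1 observations. Of the 9 genes, 4 thus had a lower share in the induced pool: Actg1 and Tubb5, which held the called introns, and Tuba1b and Pfn1, which held none. The log2 ratio was -1.38 for Tubb5 and -1.07 for Actg1, against a median of 0.12 and quartiles of -0.49 and 0.76 over the 2082 genes, and 6.48% and 10.9% of genes were below them. Actb, at 0.97, was above 82.5% of genes. No test was made, since each condition is 1 pool. A share depends on the reads of all genes in the pool, so a lower share need not mean less RNA of the gene. Fewer cells with the RNA and less RNA per cell cannot be told apart either.

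**Figure D4:**
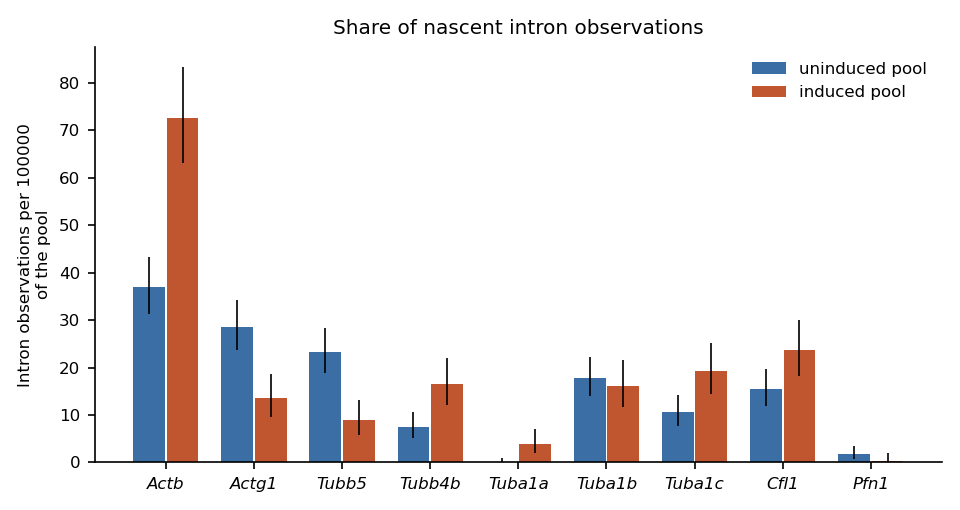
Intron observations of each gene per 100000 observations of the pool (vertical axis), uninduced in blue and induced in orange, with exact 95% Poisson intervals that do not allow for reads counted at several introns. Actb stood at 37.0 and 72.7, while Actg1 and Tubb5 were lower in the induced pool, at 13.6 and 8.95.

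The share of splicing intermediates at these introns was 1.48% and 3.86%, with intervals that hold the shares over all genes. A splicing intermediate is RNA between the first and the second step of splicing, whose upstream exon ends free at the 5' splice site. How reads were called as such is not given in the sources used here. The deposited NIC is the fraction of intermediates among intermediates and spliced reads. Of the 20 introns in the table, 17 had an uninduced and 11 an induced value. Added together, 4 of 270 reads (1.48%, interval 0.578% to 3.75%) were intermediates in the uninduced and 8 of 207 (3.86%, interval 1.97% to 7.44%) in the induced pool, beside 2.71% and 4.35% over all genes. The 4 uninduced intermediates were all in Tubb5, 2 each at introns 1 and 2, and without Tubb5 the share was 0%. Tubb5 had no line in the induced pool, so the sums of the pools cover different introns. Over the 8 introns with a value in both pools, 0 of 128 uninduced and 5 of 173 induced reads were intermediates. Of the 8 induced intermediates 7 were in Actb, and without Actb the share was 1.59%.

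In Actb the uninduced pool held 0 intermediates among 66 reads, which allows a share of up to 4.55%, and the induced pool 7 among 144, or 4.86% (interval 2.37% to 9.69%). They lay at introns 2 to 5, with 1, 1, 3 and 2, and intron 5 had the highest NIC, 0.222 on 9 reads. Intron 5 had no uninduced line, and over the 4 introns listed in both pools Actb had 0 of 66 and 5 of 135. Actg1 had 0 among 53 uninduced reads, which allows up to 5.66%, and no line in the induced pool. Of the 8 introns with a value in both pools, 0 passed Fisher's exact test with adjustment over 2039 introns, where 0.0981% of introns passed; 0 had an unadjusted p under 0.05, the smallest being 0.541, and the chi-square test called 0.

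The splice sites of these genes scored high on the deposited scale. Over the 20 introns in the table the median was 9.87 for the 5' site and 10.9 for the 3' site, against 8.78 and 8.70 over the 6537 introns of the table. The GC content had a median of 51.7% against 43.9%, and all 20 introns had GT and AG at their ends. Intron 4 of Actg1 stood apart with 6.86 and 5.59, of which the 3' score was the lowest of the 20; 18.1% and 11.4% of introns in the table scored lower. The counterpart in Actb scored 10.2 and 9.97. Intron 3 of Tuba1b had the lowest 5' score, 6.06, and a 3' score above that of 93.5% of introns. Intron 5 of Actg1, at 0.0909 in the induced pool, scored 10.5 and 12.1, and intron 2 of Tubb5, the other called intron, scored 10.1 and 7.96. The 3' scores of the called introns were the lowest of the 20 scored introns, of which 17 were among the 20 tested, and that of Tubb5 intron 2 was above 38.4% of introns in the table.

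**Figure D5:**
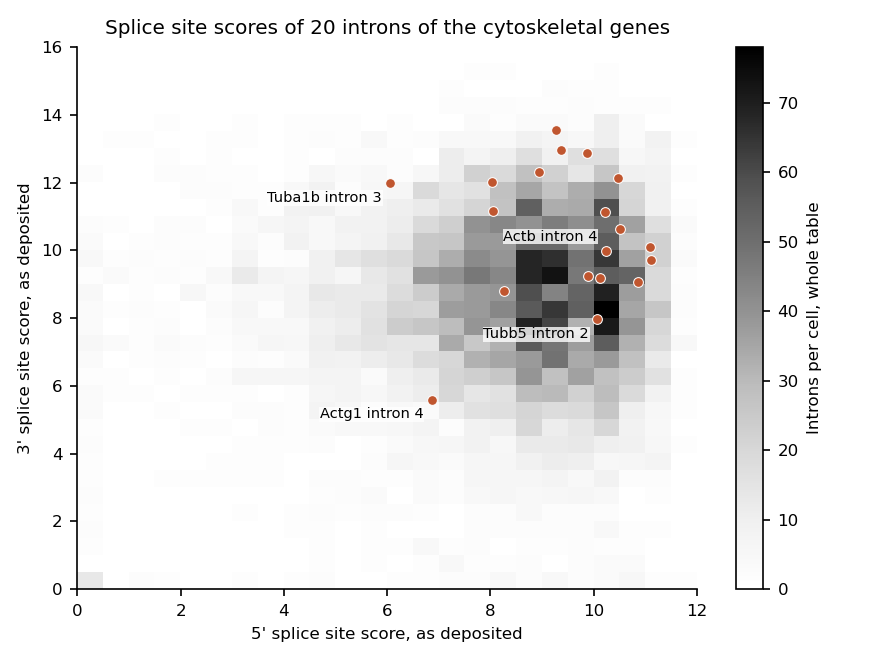
Deposited score of the 3' splice site (vertical axis) against that of the 5' splice site (horizontal axis) for 20 introns of the cytoskeletal genes (orange), over the number of introns of the whole table in cells 0.5 wide (grey; 55 introns with a 5' score and 39 with a 3' score below 0 are drawn at 0; intron 2 of Tuba1b and of Tuba1c share 1 point). Intron 4 of Actg1 lies at 6.86 and 5.59, apart from intron 4 of Actb at 10.2 and 9.97.

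Other genes of the cytoskeleton were examined through lists drawn up by role. The lists held 17 other actin and Arp2/3 genes, 15 other tubulins and 26 genes of tubulin folding and microtubules. A further list held 43 gene symbols for actin-binding proteins, myosins and actin regulators, of which Mrtfa and Mkl1 name the same gene. From these lists, 71 introns of 19 genes had enough reads in both pools, none of them in the other tubulins. By Fisher's exact test with adjustment, 0 of the 71 passed in either direction, against 1.61% of all introns. An unadjusted p under 0.05 was found at 4 of the 71, and at 7.97% of all introns. These were intron 4 of Wdr1 and introns 5, 6 and 11 of Dctn2, named after their values were seen (adjusted p from 0.159 to 0.617, Fisher's exact test). The 71 introns had a median coSE of 0.970 (uninduced) and 1 (induced), beside 0.750 and 0.709 for the 20 tested introns of the 9 genes. The genes whose added coSE was nearest to that of the 9 genes together, by distance over the 2 pool values among 485 genes with at least 100 observations in each, were Ctnnb1 (0.766 and 0.724), Eif3a (0.767 and 0.759) and Kel (0.781 and 0.753).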

How the data were processed

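Nascent RNA of MEL cells was read as PacBio long reads. Per the file headers, the authors deposited raw counts of spliced and unspliced reads per intron and condition in 1 table. In the other they deposited counts of spliced reads and of intermediates, the fraction of intermediates (NIC), a GC content as a percent and a score for each splice site. How reads were counted, filtered and pooled, and how sites were scored, is not given in the sources used here. Per the submitters' processing notes, cutadapt, minimap2, SAMtools, bedtools, Bowtie and the build mm10 were used in the series. Which runs each condition line adds up is not stated; it was taken as the 4 long-read samples of that state. There were 0 columns of other samples.

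Introns were matched by transcript identifier to GENCODE release 21 on GRCm38 (8397 of 8397 transcripts), adding 2 to the start and taking 1 from the end to give 1-based positions, and 99.96% fell on an intron of that transcript. Introns are numbered from the 5' end. Shares carry Wilson 95% intervals, and a count of 0 a limit of 3 counts. Python 3.11.15, scipy 1.17.1 and Biopython 1.88 were used. The per-intron test was also run on simulated counts drawn separately for each intron. Those counts cover neither reads shared between introns nor spread between replicates. Every intron with at least 10 reads in both pools is named with its values. Members and lists were chosen with earlier results of these data known.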

Additional observations from a re-analysis of the deposited data

How the results depend on the processing

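No paired analysis was possible because no values per replicate are in the files used here, so that leaving out a replicate or fitting a replicate block was not run. The number of introns of the 9 genes called for coSE was 2 of 20 tested and stayed 2 under the chi-square test. It was 1 of 23 with a minimum of 5 reads, 0 of 26 with no minimum, 0 of 5 with a minimum of 20, 0 of 15 with thinned uninduced reads and 0 of 12 where every annotated transcript over an intron had to contain it. At the minimum of 20 reads and under that last condition neither called intron could be tested. Over all genes these settings, in the order given, called 65 of 4403 introns (1.48%), 50 of 11556 (0.433%), 36 of 42074 (0.0856%), 68 of 1330 (5.11%), 57 of 3360 (1.70%) and 31 of 2806 (1.10%), against 71 of 4403 (1.61%). With thinned reads the differences at the called introns were -0.563 (Actg1) and -0.592 (Tubb5); the other settings that could test them use the same counts. The coSE of the 9 genes in the induced pool, 0.724, was 0.651 as a plain mean over introns with at least 10 reads and 0.664 without Actb. The share of intermediates was 0% without Tubb5 in the uninduced pool and 1.59% without Actb in the induced pool. The 20 tested introns had a median of 27 uninduced and 18.5 induced reads, against 21 and 17 over all introns tested. The other ways of weighting the introns of 1 gene were chosen after seeing the data, and for Actg1 they put the induced coSE at 0.519 and 0.0833 instead of 0.316.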
